A study of Mus musculus with 2 samples.

Results

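The clustered histone genes supply most of the H1, H2A, H2B, H3 and H4 protein that packages newly copied DNA. They were taken as all genes whose symbols start with Hist1h, Hist2h, Hist3h or Hist4h, which gave 67 of the 32285 genes in the count tables. They comprised 6 H1, 18 H2A, 18 H2B, 12 H3 and 13 H4 genes. On the mouse build GRCm38, 54 of them lay on chromosome 13 between 21715763 and 23934851, 10 on chromosome 3 (96219865 to 96270132), 2 on chromosome 11 (58948920 to 58956830) and Hist4h4 alone on chromosome 6 (136801553 to 136804415). All 67 symbols were chosen by name and none by its level.

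The counts came from single-cell RNA sequencing of live CD45+ cells of subcutaneous MC38 tumors, formed by a colon carcinoma line of the mouse in wild-type (WT) animals 8 to 10 weeks old, of both sexes. The Control library held cells from 4 unirradiated tumors pooled together, and the IR library held cells from 4 pooled tumors collected 4 days after 1 exposure to 20 Gy of ionizing radiation (IR). There was 1 library per group, so no difference below has a replicate check, and no p-value is given. The cell type field of the sample records names a narrower population (CD45+CD11b+Ly6Chi) than the CD45+ sort of the methods, and T cell, NK cell and B cell markers were present in both libraries.

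Most mRNAs of these genes are made during S phase and end in a short stem-loop in place of a poly(A) tail. The stem-loop is bound by SLBP, and the U7 small nuclear ribonucleoprotein guides the cut just after it. When DNA synthesis stops, the mRNAs are degraded. Some of the genes also give longer, polyadenylated transcripts that read past the stem-loop, and these are known from cells that have left the cell cycle. The libraries were made with a 3′ kit that primes on poly(A), so the molecules counted are those with a poly(A) tail or an A-rich stretch, and the level of the tail-less mRNA was not measured.

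The stem-loops are shown because the annotated transcript end separated the members in the results below. A stem-loop of 16 bases (6 paired bases, a loop of 4 and the 6 pairing bases, letters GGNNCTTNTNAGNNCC) was searched after the stop codon of every annotated protein-coding transcript. It was present in 46 of the 67 members (68.7%) and in 7 of the 21834 other protein-coding genes (0.0321%), among them H2afx. Of the members without a match, 17 had only 0 to 48 annotated bases after the stop codon. For these the search could not show whether a stem-loop exists. The form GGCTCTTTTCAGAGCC was the most frequent, in 26 members of the H1, H2A, H2B and H3 families, whereas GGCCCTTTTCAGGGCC occurred in 7 members, each an H4 gene. In the sequences below, read 5′ to 3′ from the transcripts, capitals mark the stem-loop.
Hist1h2ap (chr13:21833026-21833507, minus strand): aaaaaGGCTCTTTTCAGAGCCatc
Hist1h2ae (chr13:23570517-23571220, minus strand): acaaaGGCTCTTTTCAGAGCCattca
Hist1h4i (chr13:22040636-22041362, minus strand): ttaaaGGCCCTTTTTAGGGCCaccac
Hist1h1c (chr13:23738808-23740367, plus strand): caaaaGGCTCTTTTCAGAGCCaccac
Hist3h2a (chr11:58954685-58956830, plus strand): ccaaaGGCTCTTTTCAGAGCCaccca
Hist4h4 (chr6:136801553-136804415, minus strand): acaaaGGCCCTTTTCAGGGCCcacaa
The annotated transcript of Hist1h2ap ended 3 bases after its loop. Those of the others ran on for 151 bases in Hist1h2ae, 330 in Hist1h4i, 840 in Hist1h1c, 1643 in Hist3h2a and 2445 in Hist4h4. Hist1h2bc (chr13:23684199-23692908, plus strand) had no match to the stem-loop letters and 742 annotated bases after its stop codon.

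After filtering, 4679 Control and 3410 IR barcodes of at least 1000 UMIs remained (a UMI marks 1 captured RNA molecule), with medians of 7302 and 8268.5 UMIs and totals of 41533178 and 37842119. The 2 libraries shared 6 barcodes. The members gave 15105 UMIs in Control and 12491 in IR, which is 363.7 CPM (counts per 1e6 UMIs of the pooled barcodes; 95% exact Poisson interval 357.9 to 369.5) and 330.1 CPM (324.3 to 335.9). All intervals here cover counting error only and not the variation between cells, animals or libraries. Droplets of 10 to 100 UMIs, which hold mainly free RNA, carried 322 CPM in Control (306 to 340) and 334 CPM in IR (314 to 355). Free RNA was estimated at 5.22% and 5.38% of the UMIs of T cell and NK cell barcodes from their C1q UMIs, which corresponds to 16.8 and 17.98 CPM of histone UMIs.

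Of the 67 members, 63 had at least 1 UMI, 47 had at least 20 and 26 had at least 100. The 4 without a UMI were Hist1h2bq, Hist1h4m, Hist1h2ba and Hist1h2aa. H2A genes held 36.8% of all member UMIs, H1 genes 27.8%, H2B genes 19.6%, H4 genes 11.1% and H3 genes 4.68%. A few genes carried most of the signal: Hist1h2ap, an H2A gene, had 6953 UMIs (25.2%), Hist1h1c, the linker histone H1.2 gene, had 5293 and Hist1h2bc had 4121. These are 3′ tag counts, which do not scale with transcript length. Only uniquely mapped reads are counted, so UMIs of near-identical copies could be lost or assigned to the wrong member. In 28 members, over 50% of the 90-base windows in the last 500 bases of the transcript also occurred in another histone gene. This share was 92.4% in Hist1h2ap, 47.7% in Hist1h2ae and 2.43% in Hist1h4i, and 0 in Hist1h1c, Hist1h2bc, Hist3h2a and Hist1h1b. Of the 4 members without a UMI, it was 100% in Hist1h2bq, 88.5% in Hist1h4m, 29.8% in Hist1h2ba and 0 in Hist1h2aa. In Hist1h2bq and Hist1h4m the lack of UMIs therefore does not show a lack of expression. Hist1h1e overlapped an isoform of Hist1h2be on the same strand, so that 99.0% of its windows were shared.

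The first comparison asked how the members differed between cells with and without cycling genes. Each barcode was thinned to 1000 UMIs and called cycling when at least 2 of them belonged to 32 cycling genes, of which 12 mark S phase (such as Mcm5, Rrm2 and Tyms) and 20 mark G2/M (such as Mki67, Top2a and Cdk1). None of these is a member. Barcodes called without cycling genes had no such UMI among the 1000 kept by thinning. Before thinning they still held cycling gene UMIs, for example 56.6 CPM in IR monocytes and 289 CPM in IR collagen-expressing cells. In Control, the summed level was 883.9 CPM in 630 cycling barcodes and 214.2 CPM in 3494 barcodes without cycling genes, a 4.13-fold difference (3.99 to 4.27). In IR it was 942.0 CPM in 209 cycling barcodes and 217.3 CPM in 2908 without, a 4.34-fold difference (4.17 to 4.50). Barcodes with 1 cycling UMI lay between, at 293.5 CPM in Control and 353.3 CPM in IR.

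Cycling barcodes were higher in T cells, NK cells, C1q macrophages and monocytes of both libraries. Barcodes were assigned to lineages by marker UMIs (for example C1qa, C1qb and C1qc for C1q macrophages), and the fold between cycling barcodes and those without cycling genes was 7.13 (6.26 to 8.15) in Control T cells and 7.35 (6.32 to 8.57) in IR T cells. In NK cells it was 6.59 (5.28 to 8.23) and 6.86 (6.08 to 7.75). In C1q macrophages it was 3.65 (3.47 to 3.83) in Control and 2.09 (1.80 to 2.42) in IR. In monocytes, with 20 and 9 cycling barcodes, it was 3.34 (2.81 to 3.96) and 6.04 (4.99 to 7.26), but 1 barcode held 53.6% of the histone UMIs of the 9 cycling IR monocytes. In collagen-expressing cells the Control fold was 2.27 (1.95 to 2.65) and the IR fold 1.05 (0.93 to 1.17). The order of the cycling levels in Control was T cells (1247 CPM), dendritic cells (1124), collagen-expressing cells (946), NK cells (937), C1q macrophages (817) and monocytes (565). The intervals of T cells and dendritic cells overlapped, as did those of dendritic cells, collagen-expressing cells and NK cells with one another and that of NK cells with C1q macrophages. The order of the last groups rests on single barcodes: 1 barcode held 21.7% of the histone UMIs in cycling Control collagen-expressing cells and 29.4% in NK cells, and without the top barcode of each group the levels were 762 CPM in collagen-expressing cells, 798 in NK cells, 806 in C1q macrophages and 458 in monocytes.

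**Figure D1:**
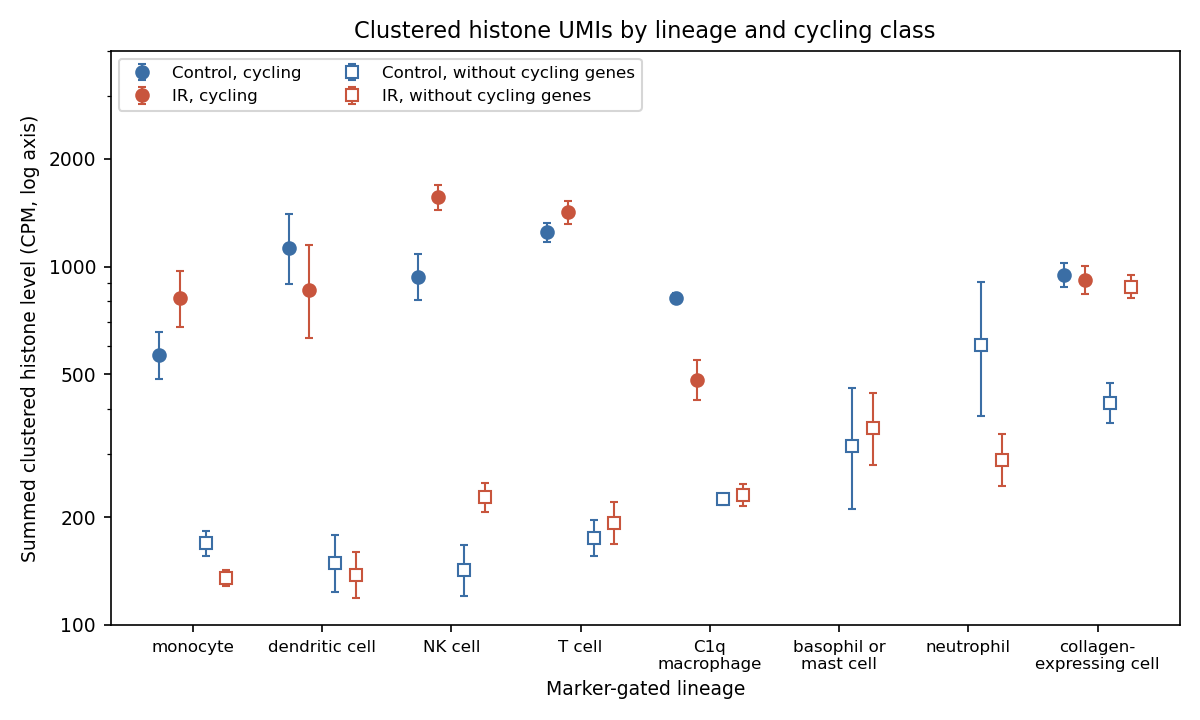
Summed level of the clustered histone genes (CPM, log axis) by marker-gated lineage, in Control (blue) and IR (red), for cycling barcodes (filled circles) and barcodes without cycling genes (open squares); bars are 95% exact Poisson intervals of the summed counts. Cycling barcodes lie above those without cycling genes except in IR collagen-expressing cells, where 917 and 877 CPM have overlapping intervals; cycling basophils or mast cells and neutrophils had at most 1 barcode per library and are not drawn, nor are B cells (12 and 8 barcodes).

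The members divided into genes found mainly in cycling barcodes and genes with similar levels in both classes. Of 40 members with at least 20 UMIs in the 2 classes together, 30 were at least 2-fold higher in cycling barcodes in Control, where 10.5% of all genes tested passed that fold, and 0 were at least 2-fold lower (4.12% of all genes). In IR, 27 of 40 were higher, against 19.8% of all genes, and 1, Hist3h2a, was lower (10.3% of all genes). The median log2 fold of the members was 1.75 in Control and 1.72 in IR, beside 0.05 and 0.18 over all genes tested.

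Hist1h2ap was at 420 CPM in cycling barcodes and 10.7 CPM in those without in Control, a 39.5-fold difference (35.0 to 44.6). In IR the same gene was at 390 and 12.1 CPM, or 32.1-fold (28.7 to 36.1). Its expected level from free RNA was 2.69 CPM in Control and 2.40 CPM in IR, below the levels without cycling genes. The second gene of this kind was Hist1h1b, the linker histone H1.5 gene, at 56.0 and 1.19 CPM in Control (47.2-fold, 33.2 to 69.3) and 57.3 and 1.53 CPM in IR (37.3-fold, 27.1 to 52.5). Hist1h2ae was 20.6-fold higher in cycling barcodes in Control (52.6 and 2.55 CPM) and 21.3-fold in IR (62.3 and 2.93 CPM). Among the weaker genes, Hist1h1a, the H1.1 gene, was 19.2-fold higher in Control and 7.76-fold in IR, Hist1h3c 16.2-fold and 33.5-fold, Hist1h2bj 10.3-fold and 17.5-fold, and Hist2h2ac 6.85-fold and 9.31-fold.

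Hist1h1c did not follow this pattern. It was at 72.3 CPM in cycling barcodes and 75.8 CPM in those without in Control, a ratio of 0.95 (0.87 to 1.04), and at 57.9 and 59.3 CPM in IR, a ratio of 0.97 (0.86 to 1.10). It was therefore the most abundant member outside cycling barcodes, followed by Hist1h2bc at 46.0 CPM in Control and 46.8 CPM in IR. Hist1h2bc was 1.24-fold higher in cycling barcodes in Control (1.12 to 1.38) and 1.78-fold in IR (1.59 to 1.98). Hist3h2a, an H2A gene outside the main cluster, was lower in cycling barcodes, with ratios of 0.59 (0.46 to 0.74) and 0.48 (0.33 to 0.67). Hist4h4 had ratios of 0.99 (0.59 to 1.62) and 0.66 (0.38 to 1.08), with intervals that held 1. The order of the families changed accordingly: H2A genes gave 57.9% of member UMIs in cycling Control barcodes and 16.8% in those without cycling genes, whereas H1 genes gave 20.0% and 40.5%.

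Between these extremes, Hist1h1e, the H1.4 gene, was 5.13-fold higher in cycling barcodes in Control and 3.32-fold in IR, and Hist1h1d, the H1.3 gene, 3.02-fold and 4.24-fold. Hist1h4d was 3.75-fold and 4.28-fold higher, Hist1h4i 2.10-fold and 3.07-fold, and Hist1h4c 2.75-fold and 2.41-fold. Of the H3 genes, Hist1h3a was 4.97-fold and 4.03-fold higher, Hist1h3e 4.39-fold and 4.94-fold, and Hist1h3d 2.39-fold and 2.91-fold. These values were below those of Hist1h2ap and Hist1h1b in both libraries. Hist2h3c1, with 110 UMIs in all, had ratios of 0.51 (0.19 to 1.14) and 0.87 (0.33 to 1.94). Hist1h4h, Hist1h2be, Hist2h2aa1 and Hist3h2ba were 2.07-fold to 2.32-fold higher in Control and at 0.95 to 1.67 in IR.

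**Figure D2:**
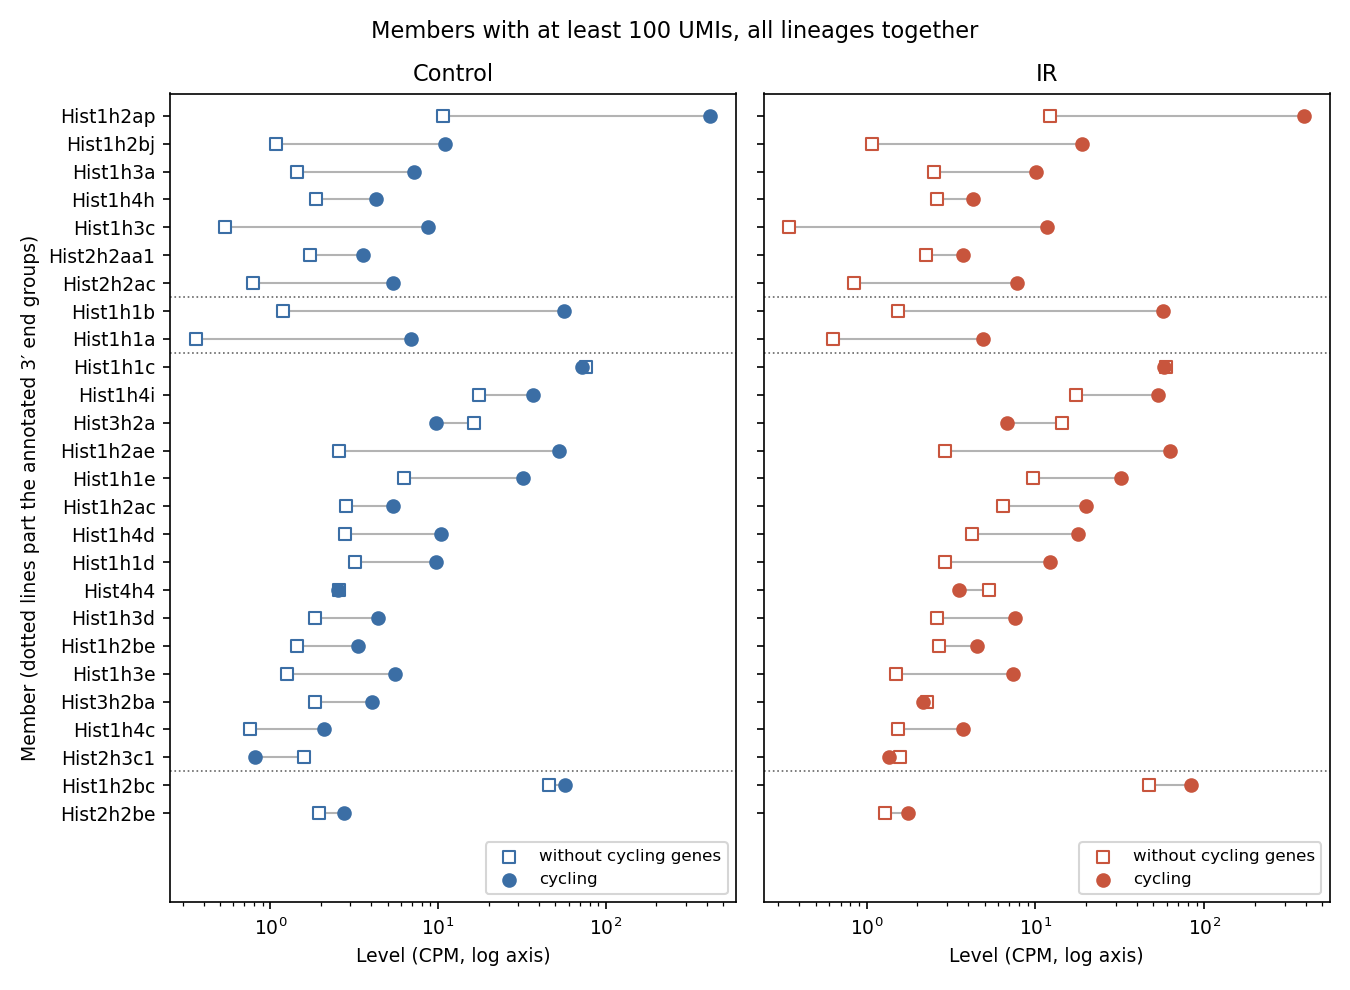
Level of each member with at least 100 UMIs (CPM, log axis) in cycling barcodes (filled circles) and barcodes without cycling genes (open squares), in Control (left) and IR (right), with members grouped by annotated 3′ end: from top to bottom a stem-loop within 100 bases of the end, no stem-loop and under 100 bases after the stop codon, a stem-loop with at least 100 further bases, and no stem-loop with at least 100 bases after the stop codon. Here no stem-loop means no match in the annotated sequence. Hist1h2ap spans 10.7 to 420 CPM in Control while the symbols of Hist1h1c nearly coincide at 75.8 and 72.3 CPM.

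The annotated 3′ end separated these groups. The 23 members whose transcripts end within 100 bases of the stem-loop summed to 482 CPM in cycling and 19.9 CPM in other Control barcodes, 24.2-fold (22.2 to 26.5), and to 472 and 24.5 CPM in IR, 19.3-fold (17.7 to 21.01). Hist1h2ap gave most of these sums. The other 22 members of the group were at 61.9 and 9.25 CPM in Control, 6.70-fold (5.76 to 7.80), and at 82.2 and 12.3 CPM in IR, 6.66-fold (5.77 to 7.69), and the median fold of single members with at least 20 UMIs was 12.7 in Control and 9.50 in IR. The 17 members without a match to the stem-loop letters and with under 100 annotated bases after the stop codon, Hist1h1b among them, were 28.5-fold higher in cycling barcodes in Control (22.5 to 36.5) and 18.4-fold in IR (15.0 to 22.7). Their annotation holds little or no sequence after the stop codon, so their true ends and stem-loops are not known from it. The 23 members whose transcripts continue for at least 100 bases past the loop were at 262 and 143 CPM in Control, 1.82-fold (1.73 to 1.92), and at 305 and 140 CPM in IR, 2.18-fold (2.05 to 2.31). Hist1h1c alone gave 2106 of their 3987 UMIs without cycling genes in Control and 1702 of 4011 in IR. The median fold of single members with at least 20 UMIs was 2.20 in Control (range 0.51 to 20.6) and 2.41 in IR (range 0.48 to 21.3). The 4 members with no loop and at least 100 bases after the stop codon were 1.28-fold higher in Control (1.15 to 1.41) and 1.78-fold in IR (1.60 to 1.99). These folds are mainly those of Hist1h2bc, which gave 494 of the 531 cycling and 1277 of the 1334 other UMIs in Control. In IR it gave 427 of 446 and 1343 of 1397. Hist2h2be was 1.42-fold and 1.36-fold higher. Hist1h2br, from 49 UMIs in all, was 13.9-fold and 3.29-fold higher, and Hist1h2bq had no UMI. In barcodes without cycling genes, members that read past the loop held 67.0% of member UMIs in Control and 64.4% in IR, and in cycling barcodes 29.6% and 32.4%.

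The separation was not complete. Hist1h2ae continues for 151 bases past its loop and was 20.6-fold higher in cycling Control barcodes, whereas Hist1h4h ends 46 bases after its loop and was 2.28-fold higher. Across members with a loop and at least 20 UMIs, the number of annotated bases after the loop and the fold gave a Spearman rho of -0.65 over 33 genes in Control and -0.54 over 32 genes in IR. These values are across genes, which share libraries and in part sequence, and no p-value is given. For each member only 1 annotated transcript was used, so other ends of the same gene are not represented. The counts do not show which end each UMI came from.

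**Figure D3:**
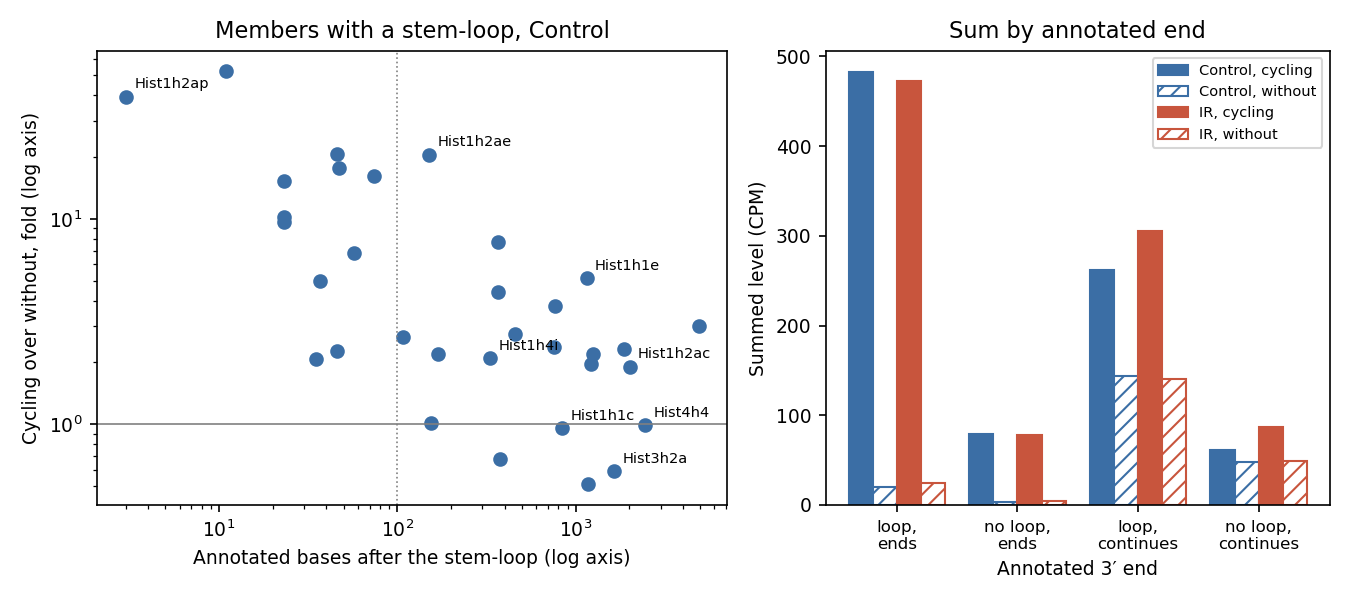
Left, annotated bases after the stem-loop (log axis) against the fold between cycling Control barcodes and those without cycling genes (log axis) for members with a stem-loop and at least 20 UMIs, with the dotted line at 100 bases and the solid line at equal levels; right, summed level (CPM) by annotated 3′ end for each library and class. Members with short ends give 482 and 472 CPM in cycling barcodes and 19.9 and 24.5 CPM without cycling genes, of which Hist1h2ap alone gives 420 and 390 CPM and 10.7 and 12.1 CPM, while members that continue past the loop keep 143 and 140 CPM without cycling genes. Of these last 2 levels, Hist1h1c alone gives 75.8 and 59.3 CPM.

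The promoters of Hist1h2ap and Hist1h1c are shown because the 2 genes had the largest counts, and of the 2 only Hist1h2ap differed in level between cycling barcodes and those without cycling genes. The sequences are the 250 bases before the transcript start in RefSeq, build GRCm38.p6, in which 62 of the 67 members were matched. Capitals mark CCAAT on either strand, the box bound by the factor NF-Y.
Hist1h2ap (chr13:21833476-21833725, minus strand): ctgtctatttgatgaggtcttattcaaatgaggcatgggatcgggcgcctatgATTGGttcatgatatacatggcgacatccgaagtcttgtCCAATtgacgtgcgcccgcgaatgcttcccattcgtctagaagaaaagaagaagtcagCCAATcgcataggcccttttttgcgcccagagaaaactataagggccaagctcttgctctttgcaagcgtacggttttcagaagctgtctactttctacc
Hist1h1c (chr13:23738557-23738806, plus strand): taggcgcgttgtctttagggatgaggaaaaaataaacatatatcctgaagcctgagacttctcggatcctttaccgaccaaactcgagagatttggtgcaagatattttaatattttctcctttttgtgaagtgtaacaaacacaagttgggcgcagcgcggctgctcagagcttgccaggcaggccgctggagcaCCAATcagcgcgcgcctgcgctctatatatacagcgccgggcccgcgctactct
CCAAT occurred 3 times in the first window and once in the second. It was present in 51 of 62 member promoters (82.3%) and in 34.5% of 27025 promoters of the same length. All 6 H1, 18 H2A and 16 H2B promoters held it, as did 8 of 10 H3 promoters and 3 of 12 H4 promoters. TATAAA on the coding strand was present in 24 member promoters (38.7%) and in 8.12% of all promoters. The octamer ATTTGCAT on either strand was present in 13 (20.97%), 7 of H2A and 6 of H2B genes, and in 1.61% of all promoters. Some windows of neighboring genes on opposite strands cover the same bases, such as those of Hist1h2ap and Hist1h2br (chr13:21833493-21833742, plus strand). A CCAAT or octamer match there is counted for both genes, so the counts are not of separate stretches of DNA. A match describes the letters in the window and no binding was measured.

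Within cycling barcodes the members were highest where S phase and G2/M genes were present together. Cycling barcodes were placed in 5 bins by the share of S phase genes among their cycling UMIs. In Control the summed level was 710 CPM at a share of 0 to 20%, 1243 CPM at 20 to 40%, 1161 CPM at 40 to 60%, 395 CPM at 60 to 80% and 133 CPM at 80 to 100%. In IR the same bins held 564, 1275, 1464, 664 and 286 CPM, the last from 18 barcodes. Hist1h2ap had its highest level in the middle bin in both libraries, at 676 CPM in Control (638 to 717) and 775 CPM in IR (724 to 829), and was at 12.1 and 59.0 CPM in the last bin. Hist1h1c was at 113, 76.8, 46.6, 36.8 and 16.9 CPM over the bins in Control and at 45.1, 111, 39.5, 36.8 and 24.9 CPM in IR, so that its lowest level was in the last bin in both libraries and its highest in the first bin in Control and the second in IR.

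Split by the larger of the 2 lists, barcodes with more S phase UMIs had a lower histone level than barcodes with more G2/M UMIs. The ratio was 0.54 (0.50 to 0.57) in Control and 0.67 (0.63 to 0.72) in IR. It was 0.60 (0.54 to 0.67) in Control C1q macrophages, 0.62 (0.54 to 0.72) in Control T cells and 0.56 (0.48 to 0.65) in IR T cells. When a list had to have at least 2 times the UMIs of the other, the ratios over all barcodes were 0.37 and 0.53. Several of the 12 S phase genes, such as Mcm5, Cdc6 and Ccne2, are known to peak at the G1/S border.

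**Figure D4:**
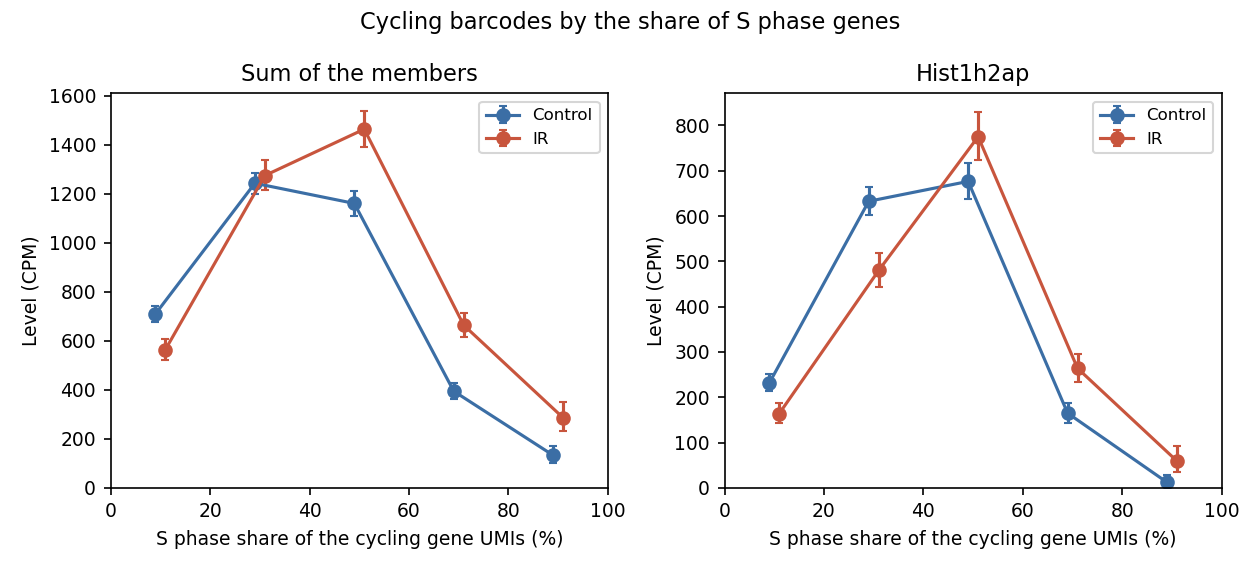
Level (CPM) of the summed members (left) and of Hist1h2ap (right) in cycling barcodes by the share of S phase genes among their cycling gene UMIs, in 5 bins of 20 percentage points, for Control (blue) and IR (red, shifted slightly to the right); bars are 95% exact Poisson intervals. Hist1h2ap peaks in the middle bin (676 CPM for Control, 775 CPM for IR) and is at 12.1 and 59.0 CPM in the last bin.

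Outside cycling barcodes the lineages differed in which members they carried. C1q macrophages without cycling genes held 224 CPM in Control and 231 CPM in IR, T cells 175 and 193 CPM, dendritic cells 149 and 138 CPM. Neutrophils, which do not divide once mature, held 604 CPM in Control from only 23 UMIs (383 to 906) and 289 CPM in IR from 143 UMIs (244 to 341). Most of their UMIs came from 2 members with long annotated ends: Hist1h2bc at 236 CPM in Control (9 UMIs) and 107 CPM in IR (53 UMIs), and Hist1h1c at 131 CPM (5 UMIs) and 84.9 CPM (42 UMIs). Hist1h2ap had 1 UMI in the Control neutrophils and 0 in those of IR. Basophils or mast cells had Hist1h1c at 158 CPM in Control (86.5 to 265) and 207 CPM in IR (151 to 277), against 76.3 and 51.6 CPM in C1q macrophages.

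Collagen-expressing barcodes, identified by collagen genes, had more Hist1h2bc than C1q macrophages, monocytes and NK cells. The neutrophils above had a higher Hist1h2bc level in Control, from few UMIs, and a lower level in IR. Among IR collagen-expressing barcodes without cycling genes, the most loaded barcode held 40.4% of the histone UMIs. Hist1h2bc was at 182 CPM in Control and 346 CPM in IR without cycling genes, against 51.2 and 56.5 CPM in C1q macrophages, 22.3 and 21.7 CPM in monocytes and 15.4 and 31.1 CPM in NK cells. In cycling collagen-expressing barcodes Hist1h2bc was at 245 and 209 CPM, similar to or above Hist1h2ap at 208 and 223 CPM. Hist1h2ap gave 22.0% and 24.3% of the histone UMIs of these cycling barcodes, against 52.1% and 45.5% in cycling T cells. Ptprc, the gene for CD45, was at 14.1 CPM in the Control and 10.1 CPM in the IR collagen-expressing barcodes. It was at 657 and 597 CPM in monocytes and at 183 and 143 CPM in dendritic cells. This group thus had little RNA for the marker of the sort, which was made on the protein, and the protein was not measured here. It comprised 80 Control and 60 IR barcodes.

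The second comparison asked how IR and Control differed. Fewer barcodes were cycling in IR, 209 of 3410 (6.13%, exact Clopper-Pearson interval 5.35 to 6.99%) against 630 of 4679 in Control (13.5%, 12.5 to 14.5%). In C1q macrophages the share was 28 of 374 (7.49%, 5.03 to 10.6%) against 333 of 1973 (16.9%, 15.2 to 18.6%), and in monocytes 0.75% against 3.05%. In T cells it was 13.0% against 17.6% and in NK cells 6.19% against 7.66%, with overlapping intervals. Without thinning, the shares were 26.3% in IR and 34.9% in Control over all barcodes and 31.0% and 42.6% in C1q macrophages. The unthinned order was the other way in monocytes (15.0% in IR, 13.1% in Control), T cells (35.2% and 34.6%) and NK cells (32.4% and 28.4%), where IR barcodes also had more UMIs, with medians of 8271, 5642 and 5551 against 5506, 4650 and 4372.5.

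Over all barcodes the summed histone level was lower in IR by a log2 ratio of -0.14 (-0.17 to -0.11). It was 0.09 (0.04 to 0.14) within cycling barcodes and 0.02 (-0.03 to 0.07) within those without cycling genes. Each combination of lineage and cycling class was then weighted by its share of the UMIs. With the IR levels and the Control shares the sum was 368.3 CPM, and with the Control levels and the IR shares it was 307.6 CPM. The measured values were 363.7 CPM in Control and 330.1 CPM in IR. Hist1h2ap, the member with the most UMIs, had a log2 ratio of -0.60 (-0.67 to -0.53), at 104.5 CPM in Control and 69.0 CPM in IR. The sum of the other members had a log2 ratio of 0.01 (-0.03 to 0.05). By family, the level was 105 CPM in Control and 87.9 CPM in IR for H1, 144 and 110 CPM for H2A, 63.8 and 72.9 CPM for H2B, 15.1 and 17.5 CPM for H3, and 35.6 and 41.6 CPM for H4.

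Of 47 members tested over all barcodes, 2 were at least 2-fold higher in IR, where 5.69% of all genes passed, and 0 were at least 2-fold lower (2.63% of all genes). The member share is thus near that of all genes. The 2 were Hist1h2ac, at 3.47 CPM in Control and 8.30 CPM in IR (log2 ratio 1.26, 0.97 to 1.55), and Hist4h4, at 2.50 and 5.15 CPM (log2 ratio 1.04, 0.69 to 1.40). For Hist1h2ac, 1 barcode held 23.9% of the IR UMIs. For Hist4h4, the most loaded IR barcode held 4.6%. Hist4h4 without cycling genes was at 2.63 and 5.49 CPM in C1q macrophages and at 5.29 and 6.03 CPM in monocytes, with overlapping intervals in both. Monocytes were more numerous in IR (1201 barcodes against 655), and the part of the lineage shares in the Hist4h4 difference was not tested.

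In cycling C1q macrophages the summed level was 817 CPM in Control (333 barcodes, 3479 UMIs) and 483 CPM in IR (28 barcodes, 235 UMIs), a log2 ratio of -0.76 (-0.96 to -0.57). Of 20 members, 7 were at least 2-fold lower in IR, against 8.58% of all genes, and 0 at least 2-fold higher (3.65%). Hist1h2ae was at 55.4 CPM in Control and 14.4 CPM in IR. Its intervals did not overlap. Hist1h2ap was at 409 and 214 CPM (log2 ratio -0.94, -1.23 to -0.65), just under a 2-fold difference. Of the other 6 past that fold, Hist1h4i had 5 UMIs in IR, Hist1h1a, Hist1h2bj, Hist1h2ac and Hist2h2aa1 had 1 each, and the 6th was Hist1h2ab, a gene of under 100 UMIs in all. The cycling genes themselves summed to 4302 CPM in Control and 3292 CPM in IR in these barcodes, and their part in the histone difference was not tested. With cycling called from the unthinned rate of cycling UMIs, the log2 ratio was -0.12 (-0.27 to 0.03). Barcodes with 1 cycling UMI had the opposite order, 309 CPM in Control and 511 CPM in IR.

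In C1q macrophages without cycling genes the sum did not differ beyond counting error (log2 ratio 0.04, -0.07 to 0.15). Markers of other lineages in the C1q macrophage gate, both classes included, were higher in IR: the 6 monocyte markers summed to 837 CPM in Control and 1834 CPM in IR, the 7 neutrophil markers to 130 and 567 CPM and the 6 NK cell markers to 57.3 and 139 CPM. Their part in the differences of this gate, cycling barcodes included, was not tested. Hist1h1c was at 76.3 CPM in Control (71.6 to 81.2) and 51.6 CPM in IR (44.5 to 59.5), a log2 ratio of -0.57 (-0.80 to -0.34). By contrast 5 of 20 members were at least 2-fold higher in IR, against 3.27% of all genes, and 0 at least 2-fold lower (4.72%). They were Hist1h4d (2.48 and 5.21 CPM), Hist1h4h (1.47 and 3.84 CPM), Hist3h2ba (1.47 and 4.12 CPM), Hist4h4 and Hist2h3c2. The 4 other than Hist2h3c2 had at most 34 UMIs each in Control and 20 in IR, and among them the intervals of Hist3h2ba alone did not overlap. The median log2 ratio of the 20 members was 0.53, beside -0.08 over all genes tested, with 15 members higher and 5 lower.

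In monocytes without cycling genes the summed level was 169 CPM in Control and 135 CPM in IR, a log2 ratio of -0.32 (-0.46 to -0.18). The 7 neutrophil markers summed to 174 CPM in the Control and 767 CPM in the IR monocyte gate, and their part was not tested. One Control barcode held 118 of the 607 Control UMIs, and without the top barcode of each library the log2 ratio was -0.04 (-0.18 to 0.12). Of 15 members, 1 was at least 2-fold higher (Hist1h1d, from 3 and 24 UMIs), against 3.41% of all genes, and 1 at least 2-fold lower (Hist1h1c), against 1.73%. Hist1h1c was at 71.6 CPM in Control and 32.7 CPM in IR, a log2 ratio of -1.13 (-1.37 to -0.89), and 81 of its 257 Control UMIs came from 1 barcode. Without the top barcodes it was at 49.4 CPM in Control and 32.8 CPM in IR (log2 ratio -0.59, -0.86 to -0.32).

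In NK cells the histone level was higher in IR in both classes. Cycling NK cells were at 937 CPM in Control (17 barcodes) and 1559 CPM in IR (21 barcodes), a log2 ratio of 0.73 (0.50 to 0.98), and those without cycling genes were at 142 and 227 CPM (0.68, 0.41 to 0.95). In cycling NK cells Hist1h2ap was at 396 and 758 CPM and Hist1h2bj at 5.01 CPM (1 UMI) and 77.7 CPM (32 UMIs). Of 10 members, 4 were at least 2-fold higher (Hist1h2bj, Hist1h4d, Hist1h1e and Hist1h3a), against 7.19% of all genes, and 1, Hist1h2bc, at least 2-fold lower (7.27%), at 75.1 CPM in Control and 14.6 CPM in IR. In T cells the cycling level was 1247 and 1419 CPM (log2 ratio 0.19, 0.05 to 0.32), with Hist1h2ap at 650 and 646 CPM. Of 12 members, 1 was at least 2-fold higher (Hist1h1d, 9.66 and 29.3 CPM), against 2.97% of all genes, and 0 at least 2-fold lower (5.19%). In T cells without cycling genes the log2 ratio was 0.14 (-0.11 to 0.40).

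In collagen-expressing barcodes without cycling genes the summed level was 417 CPM in Control (40 barcodes) and 877 CPM in IR (31 barcodes), a log2 ratio of 1.07 (0.86 to 1.29). A single IR barcode held 289 of the 716 IR UMIs (40.4%), and without the top barcode of each library the log2 ratio was 0.50 (0.25 to 0.75). The median over single barcodes was 273 CPM in Control and 210 CPM in IR, so the sums and the medians had opposite orders. Without thinning, 60% of all Control and 85% of all IR collagen-expressing barcodes were called cycling, so this class includes barcodes with cycling gene UMIs. Of 4 members, 2 were at least 2-fold higher in IR (Hist1h2ac and Hist1h2ap), against 5.71% of all genes, and 0 at least 2-fold lower (5.86%). Hist1h2ap was at 1.78 CPM (1 UMI) and 58.8 CPM (48 UMIs). The direction of the sum changed with at least 2000 UMIs per barcode (-0.10), without the highest doublet scores (-0.21) and with lineage cutoffs doubled (-0.71).

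**Figure D5:**
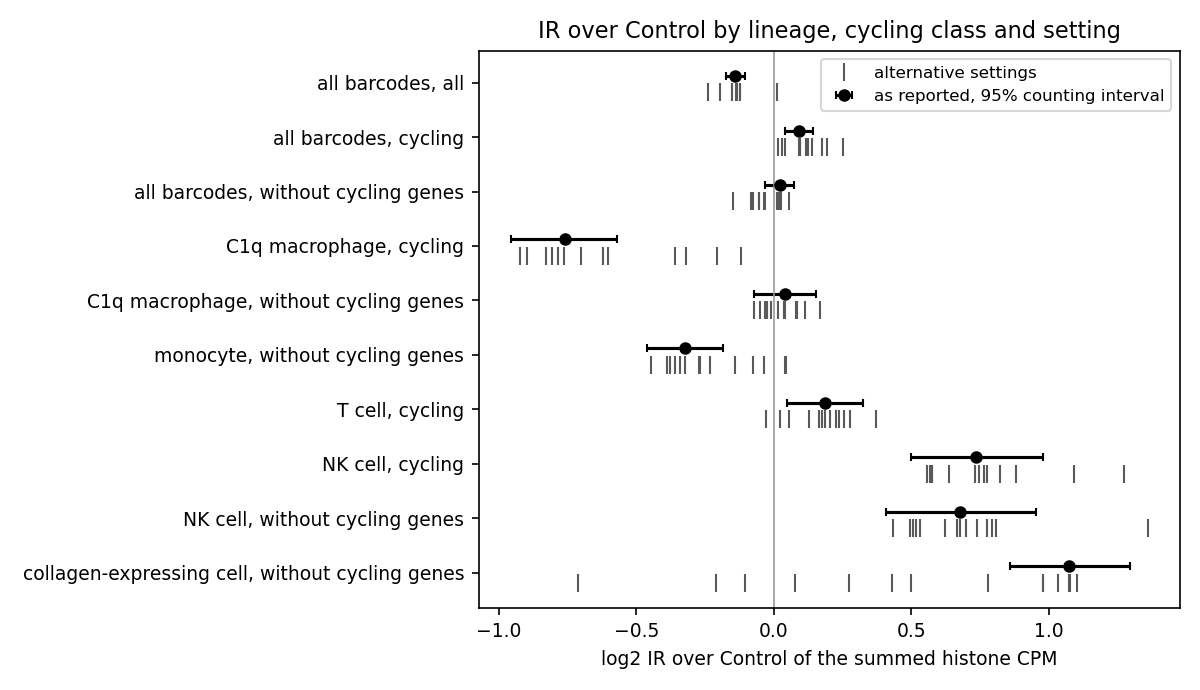
Log2 ratio of the summed histone CPM, IR over Control, by lineage and cycling class: circles with bars are the values as reported with their 95% exact intervals, and vertical ticks are the same ratio under alternative settings. The C1q macrophage cycling ratio stays below 0 (-0.92 to -0.12) and both NK cell ratios above 0, while the collagen-expressing ratio spans -0.71 to 1.10.

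Genes that supply or handle histones were set beside the members, with 10.5% of all genes in Control and 19.8% in IR at least 2-fold higher in cycling barcodes. Of 11 histone genes listed as replication-independent, 7 were at least 2-fold higher in cycling barcodes in both libraries. Among them were H2afx, the variant phosphorylated at DNA breaks, at 7.49-fold in Control and 6.71-fold in IR, and H2afz at 2.47-fold and 2.003-fold. H2afx also had a match to the stem-loop letters that most members carry, so its place in this list is uncertain. H3f3a and H3f3b, which encode the H3.3 variant that is placed outside replication, had ratios of 1.02 and 1.07 in Control and 0.75 and 0.88 in IR. Of 14 genes for histone chaperones and assembly, 9 were at least 2-fold higher in Control and 12 in IR, led by Asf1b at 16.8-fold and 23.9-fold, and Chaf1a, the large subunit of chromatin assembly factor 1, at 5.70-fold and 9.67-fold. Of 11 tested genes for histone mRNA 3′ processing, 2 were at least 2-fold higher in each library. Lsm11, a U7 subunit, passed in both at 2.17-fold and 2.67-fold, Slbp in Control at 2.07-fold (1.98-fold in IR) and Cstf2, a cleavage stimulation factor subunit, in IR at 2.08-fold (1.55-fold in Control). Of 6 genes for histone mRNA decay, 2 passed in each library, Eri1, the nuclease that trims the stem-loop end, at 2.13-fold and 2.09-fold, and Dis3 at 2.38-fold and 3.96-fold. The 2 of 11 processing genes in IR are no larger a share than that of all genes. Between IR and Control over all barcodes, 0 of the 11 histone variants, 0 of the 12 processing genes and 0 of the 6 decay genes passed a 2-fold difference, and 1 of the 14 chaperone genes, Daxx, was higher in IR (log2 ratio 1.37), beside 5.69% of all genes higher and 2.63% lower.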

How the data were processed

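Live CD45+ cells of 2 libraries (1 Control, 1 IR) were profiled with Chromium 3′ chemistry. The authors deposited unfiltered UMI counts per gene and barcode, made by Cell Ranger against mm10. The matrix header names Cell Ranger 4 while the submitters' notes name 6.0.1, and only uniquely mapped reads are counted by that program.

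Barcodes with at least 1000 UMIs, at least 200 genes and at most 25% mitochondrial UMIs were kept, which left out 296 of 4975 Control and 97 of 3507 IR barcodes. DoubletFinder, run by the authors, was not used, and the 6% of barcodes with the highest Scrublet scores were left out as an alternative. Lineages were gated on 9 marker lists. A barcode was given the lineage whose marker UMIs per 1000 UMIs, divided by a cutoff, were highest, with at least 3 marker UMIs and the second lineage at no more than 50% of the first (for monocytes against C1q macrophages, the larger won). Cutoffs were 2 for monocytes and C1q macrophages, 10 for neutrophils and 1.5 for the others, and were set after the marker levels were seen. UMIs were summed per library, lineage and cycling class and given as CPM of that sum. No test was possible with a single library per group. Intervals are 95% and exact (Poisson for counts, Clopper-Pearson for shares, conditional binomial for ratios) and cover counting error only. A member or gene was counted as higher or lower at a ratio of at least 2 with at least 20 UMIs. Members with at least 100 UMIs are named with values. Those past the ratio are all named in the comparisons of IR with Control, and only in part in the comparison of cycling barcodes with those without cycling genes. The members and all lists, the end groups included, were chosen with earlier results of these data known.

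Of the annotated protein-coding transcripts of a gene (GENCODE vM21, GRCm38), the one with a stem-loop and the longest stretch after the stop codon was used. The study counted against a later GENCODE release on the same build. Promoters came from RefSeq (GRCm38.p6). Software was numpy 2.4.6, scipy 1.17.1, pandas 2.3.3, scanpy 1.11.5 and, for TMM factors, edgeR 4.0.16 in R 4.3.3. The steps were tested on simulated data.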

Additional observations from a re-analysis of the deposited data

Results flagged for a closer look

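The log2 ratio of the summed histone CPM, IR over Control, had opposite signs in different lineages of the same cycling class, each with a counting interval that did not hold 0. In cycling barcodes it was -0.76 in C1q macrophages, 0.19 in T cells and 0.73 in NK cells. In barcodes without cycling genes it was -0.32 in monocytes, 0.68 in NK cells and 1.07 in collagen-expressing cells. The differences between lineages were not tested, since each lineage had 1 library per group. The values for monocytes and T cells, and for collagen-expressing cells, changed sign under at least 1 alternative, and those for C1q macrophages and NK cells did not.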

How the results depend on the processing

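No paired analysis was possible because each group had 1 library. Alternatives with cycling called from the unthinned rate, doubled lineage cutoffs, Hist1h2ap left out of the end groups and the top barcode of each library, lineage and class left out were chosen after seeing the data. Values that left the main interval or 1.5 times the main count are given next. For barcodes without cycling genes, the ratios over all lineages and in C1q macrophages, whose main intervals hold 0, took both signs. The ratio over all barcodes of every class, -0.14 with an interval below 0, changed sign without Hist1h2ap (0.011). The cause of these changes was not tested.

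The log2 ratio over all barcodes was -0.24 without the top barcodes, -0.20 without mitochondrial and ribosomal protein genes in the total, and 0.011 without Hist1h2ap. Within cycling barcodes it was 0.19 without the highest Scrublet scores, 0.030 with other random thinning, 0.17 by the unthinned rate, 0.013 with TMM scaling and 0.25 without Hist1h2ap. Without cycling genes it was -0.081 from 2000 UMIs, -0.038 without the highest Scrublet scores, -0.15 with 0 unthinned cycling UMIs, -0.033 with other thinning, -0.077 by the unthinned rate, -0.054 without the top barcodes and -0.054 without mitochondrial and ribosomal protein genes. In cycling C1q macrophages it was -0.32 from 2000 UMIs, -0.21 with no mitochondrial limit, -0.36 without the highest Scrublet scores and -0.12 by the unthinned rate, and the sign held in 13 of 13 alternatives. In C1q macrophages without cycling genes it was 0.17 with 0 unthinned cycling UMIs. In monocytes without cycling genes it was 0.045 from 2000 UMIs, -0.14 without the highest Scrublet scores, -0.076 with 0 unthinned cycling UMIs, 0.042 with other thinning and -0.036 without the top barcodes. In cycling T cells it was 0.023 with no mitochondrial limit, -0.028 with at least 3 cycling UMIs and 0.37 without Hist1h2ap. In cycling NK cells it was 1.09 with at least 3 cycling UMIs and 1.27 with doubled cutoffs, and in NK cells without cycling genes 1.36 from 500 UMIs. In collagen-expressing cells without cycling genes it was -0.10 from 2000 UMIs, 0.43 from 500 UMIs, -0.21 without the highest Scrublet scores, 0.78 with 0 unthinned cycling UMIs, 0.076 with other thinning, -0.71 with doubled cutoffs, 0.27 by the unthinned rate and 0.50 without the top barcodes.

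The fold of cycling barcodes over those without cycling genes was, in Control and IR, 4.46 and 5.24 without the highest Scrublet scores, 4.63 and 4.87 with at least 3 cycling UMIs, 4.41 and 5.20 with 0 unthinned cycling UMIs, 4.38 and 4.58 with other thinning, 4.81 and 5.72 by the unthinned rate, 4.39 and 4.64 with free RNA subtracted, and 2.28 and 2.69 without Hist1h2ap. In IR it was 4.97 from 2000 UMIs. With members of at least 5 UMIs and of at least 1 UMI, the members past 2-fold in IR over Control were 7 and 8 higher and 1 and 1 lower. In cycling barcodes, 48 and 52 were higher in Control and 42 and 45 in IR. The share of cycling barcodes in Control and IR was 34.9% and 26.3% without thinning and 9.64% and 4.25% with at least 3 cycling UMIs, and in C1q macrophages 42.6% and 31.0%, and 13.0% and 4.55%. With at least 2 times the UMIs of the other list, the S phase over G2/M ratio in Control and IR was 0.37 and 0.53 over all barcodes, 0.25 and 0.29 in C1q macrophages and 0.46 and 0.29 in T cells.

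Small groups limit the depth: 9 monocytes, 3 dendritic cells and 18 collagen-expressing barcodes were cycling in IR, and the intervals do not cover differences between tumors.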

Other observations

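Barcodes without a lineage by the gate also carried histone UMIs. Those without cycling genes were at 250.6 CPM in 594 Control barcodes and 359.6 CPM in 358 IR barcodes, a log2 ratio of 0.52 (0.41 to 0.63). Cycling barcodes without a lineage were at 889.7 CPM in Control and 840.3 CPM in IR. Barcodes with the markers of several lineages were at 890.6 and 904.4 CPM when cycling and at 180.4 and 163.1 CPM without cycling genes, with overlapping intervals in both classes. Hist4h4 in barcodes without a lineage and without cycling genes was at 1.70 CPM in Control (8 UMIs) and 5.76 CPM in IR (23 UMIs).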
